A study of Mus musculus with 12 samples.

Results

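The 10 genes of tryptophan breakdown through kynurenine and of NAD metabolism examined here were followed by RNA sequencing in M1-activated bone marrow-derived macrophages (BM-Mɸs), namely Ido1, Ido2, Afmid, Kmo, Kynu, Haao, Nampt, Naprt, Cd38 and Nadk. They are the rows of the deposited table that carry these 10 symbols, out of 22243 genes in all, and were chosen by symbol with earlier results of these data known. The table holds 1 transcript of each gene except Nadk, which has 2, and TPM (a level scaled to the library and to transcript length) were summed per gene. BM-Mɸs were grown with M-CSF from the marrow of mice carrying loxP-flanked ErbB4, so both groups bore the floxed allele, and the labels give C57Bl/6 as the background strain. The ErbB4myeKO mice also carried LysMCre, and their ErbB4FF littermates did not. LysMCre is expressed in myeloid cells from within the Lyz2 locus, so any effect of the Cre insertion cannot be told apart from that of deleting ErbB4. All 12 cultures were exposed to IFN-γ (100 U/mL, 16 h) before LPS (100 ng/mL, 6 h), so there was no unstimulated sample. Each of 6 litters gave 1 mouse of either genotype, and the labels give no age. The batch label follows the litter number, so litter and batch cannot be told apart.

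Indoleamine 2,3-dioxygenases open the indole ring of tryptophan, and the product is cut to kynurenine, a ligand of the aryl hydrocarbon receptor. Kynurenine is hydroxylated by KMO and cleaved by kynureninase, and after a step by HAAO the carbon skeleton can be closed to quinolinate and built into NAD. Most mammalian cells instead recycle nicotinamide to NAD through NAMPT, while CD38 breaks NAD down and NAD kinase turns it into NADP. IDO1 is known as a target of IFN-γ, and CD38 and NAMPT are known to be raised in macrophages by LPS.

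The targeted gene was examined first. Erbb4 was between 0.280 and 0.852 TPM in the libraries labelled ErbB4myeKO and between 0.372 and 0.716 TPM in those labelled ErbB4FF, so it was not lower in the former. The summed table does not show which exons these reads came from. Lyz2 was lower in the library labelled ErbB4myeKO in litters 1 to 5, by log2 ratios of -1.20 to -0.81, and higher in litter 6, by 1.43. The macrophage marker Itgam had the same pattern, with log2 ratios of -0.47 to -0.22 in litters 1 to 5 and 0.24 in litter 6, and Adgre1 was at -0.35 in litter 6 and 0.00 to 0.23 in the rest. Itgam and Adgre1 come from a list of 8 macrophage markers. Of the others, Mertk was higher in all 6 litters (0.47 in litter 6). Cd68, Csf1r and Cd14 had ratios of both signs in litters 1 to 5. Il12b (0.80), Tnf (0.10), Cxcl10 (-0.39) and Fcgr1 (-0.70) kept in litter 6 the direction of the other 5 litters. They were picked for this check after their values were seen. Whether the labels of litter 6 are exchanged was not tested. Results are given by label. Values without litter 6 are given beside those of Ido1, Ido2, Kynu, Nampt, Cd38, Nadk and Haao, and of some list genes only. The macrophage markers Adgre1 (662 to 1060 TPM) and Cd68 (314 to 571 TPM) were high in all 12 libraries. Of the dendritic cell markers, Cd209a and Siglech were listed at 0 throughout and Flt3 and Zbtb46 did not exceed 0.0789 and 0.394 TPM, although Ccr7 reached 104 TPM and Xcr1 29.0 TPM. Summed neutrophil markers were 39.7 to 371 TPM in libraries labelled ErbB4myeKO and 40.1 to 185 TPM in those labelled ErbB4FF, with Ly6g, Mpo and Elane at most 0.549 TPM and Retnlg at 0. The 10 lymphocyte markers summed to at most 3.49 TPM and 6 erythroid markers to at most 0.981 TPM. Between 10214 and 12985 genes were above 0 TPM, the fewest in litter 3 of the label ErbB4myeKO.

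Ranked by group median, Nampt, Cd38 and Nadk stood above the kynurenine genes, while Naprt stood below Kynu and Ido1. In libraries labelled ErbB4FF the median was 468 TPM for Nampt, 217 TPM for Cd38, 85.9 TPM for Nadk, 35.0 TPM for Kynu and 6.42 TPM for Ido1. The order of these 5 was the same in libraries labelled ErbB4myeKO, with medians of 506, 198, 91.1, 40.0 and 5.50 TPM. The ranges of Nampt and Cd38 did not meet each other or those of the genes beneath them in either group. Those of Nadk and Kynu overlapped in both groups, and that of Ido1 reached into that of Kynu in the ErbB4FF group alone. The other 5 genes, Ido2, Afmid, Naprt, Haao and Kmo, averaged under 1 TPM, and neighbours in their order overlapped. Among the transcripts listed, the first enzyme was measurable and kynureninase higher, while Kmo, which acts before kynureninase, and Haao, which acts after it, were close to the bottom of the scale. The table holds 1 of 6 annotated transcripts of each of Kmo and Haao, so these values may miss RNA of the gene.

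**Figure D1:**
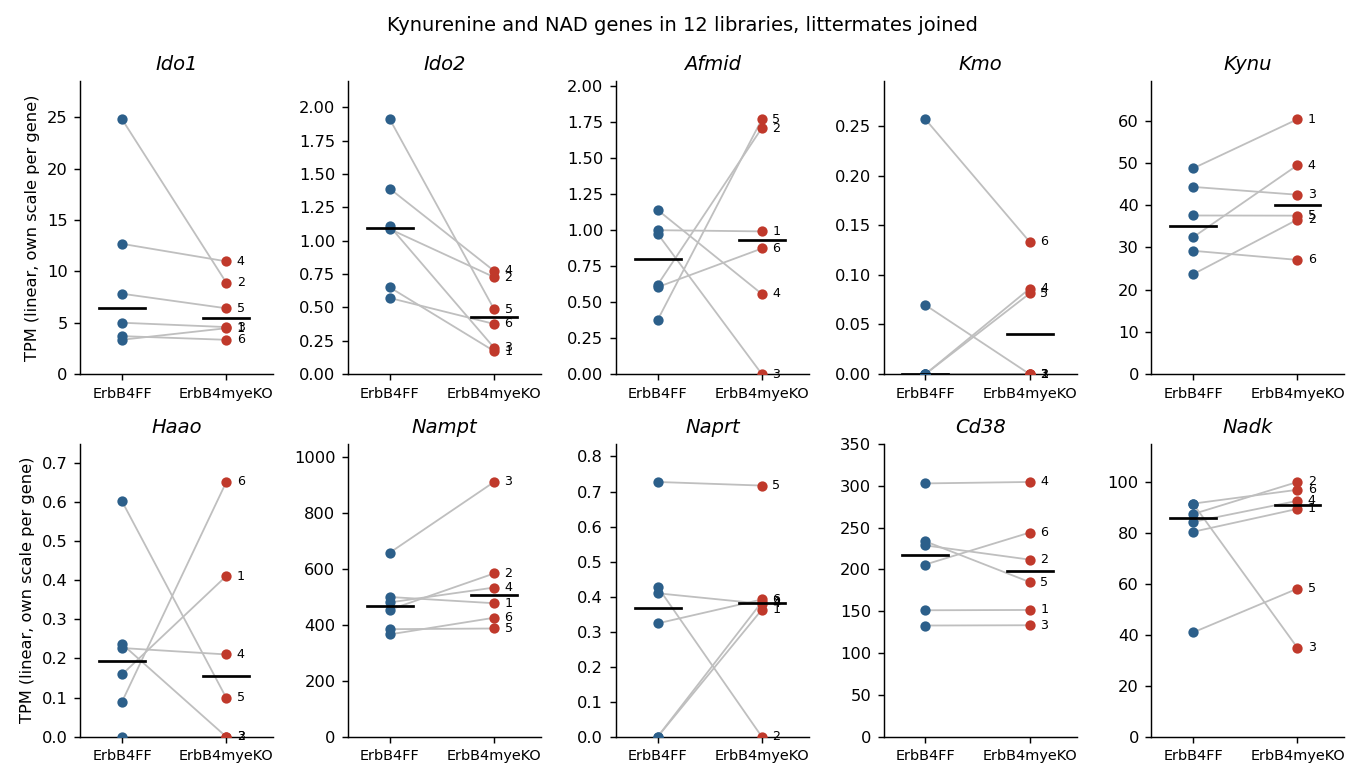
TPM of each gene in 12 libraries (vertical axis, linear and scaled separately for every gene), by genotype label on the horizontal axis. Each point is a library, grey lines join littermates, black bars are group medians and the small digits are litter numbers. The ErbB4FF and ErbB4myeKO ranges overlap in all 10 panels, and Ido2 is the panel in which all 6 lines fall.

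Genotype was tested by limma in the 8780 genes that averaged 1 TPM or more, on log2(TPM + 0.5) with litter as a block, and 0 of them (0.0%) had a Benjamini-Hochberg adjusted p under 0.05. An unadjusted p under 0.05 was found for 721 (8.21%), with 336 (3.83%) higher and 385 (4.38%) lower with the label ErbB4myeKO. Of the 10 genes, 5 entered this test (Ido1, Kynu, Nampt, Cd38 and Nadk). None of the 5 was called, and Nampt alone had an unadjusted limma p under 0.05, in the upward direction. The remaining 5 lay under the filter and were compared by exact two-sided permutation of genotype within litters, with 64 swaps and a smallest possible p of 0.0312. Cultures are bulk samples, so fewer cells of a type and less RNA per cell cannot be told apart. A fold on the log2(TPM + 0.5) scale understates the change of low genes.

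Ido1 (ENSMUSG00000031551; GRCm38 chromosome 8, 24584136 to 24597009, minus strand), the dioxygenase that starts the pathway, was read in litters 1 to 6 at 4.47, 8.91, 4.58, 10.98, 6.41 and 3.34 TPM in libraries labelled ErbB4myeKO. Their littermates labelled ErbB4FF had 3.35, 24.8, 5.004, 12.7, 7.83 and 3.70 TPM. The groups overlapped, 5 of 6 litters were lower with the label ErbB4myeKO, and the widest gap was in litter 2. The limma log2 fold change was -0.30 (SE 0.21, 95% interval -0.79 to 0.20, adjusted p = 0.685), and the exact permutation p was 0.281. Without litter 2 the log2 fold change was -0.07, and without litter 6 it was -0.33.

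Ido2 (ENSMUSG00000031549; chromosome 8, 24531892 to 24576333, minus strand), the neighbouring paralog, whose enzyme is a much weaker dioxygenase, was listed at 0.173, 0.727, 0.198, 0.774, 0.486 and 0.376 TPM with the label ErbB4myeKO. The littermates had 0.650, 1.09, 1.11, 1.39, 1.91 and 0.571 TPM. Ido2 was lower in 6 of 6 litters, by log2 ratios of -0.29 to -1.29, although the group ranges overlapped between 0.571 and 0.774 TPM. The mean was 0.456 ± 0.257 TPM against 1.12 ± 0.494 TPM (SD, n = 6 each), and the log2 ratio averaged -0.75 ± 0.42 (SD over 6 litters, exact permutation p = 0.0312, the smallest that the swaps can give). Of 15865 genes above 0 in any library, 219 (1.38%) were lower in all 6 litters, and of 1006 genes averaging 0.5 to 1 TPM, 10 (0.994%) were. In a limma fit with no filter on level, Ido2 had an unadjusted p of 0.00468 and an adjusted p of 0.764. The authors' average of log-transformed (natural log) normalized estimated counts, taken back to a count, was 9.33 for its transcript, a geometric and not an arithmetic mean over libraries, so the level rests on few reads. Ido2 was the single gene of the 10 that moved the same way in every litter, and 10 such genes were examined. No 31-base word of the Ido1 transcript occurred in Ido2 or the reverse, so the 2 genes could be told apart at that length. Of the words of the Ido2 transcript, 88.4% occur in other Ido2 transcripts, and the table holds 1 of 4 annotated, so a shift between transcripts of Ido2 cannot be told apart from a change of the gene. Without litter 6 the mean log2 ratio was -0.84 (exact permutation p = 0.0625, the smallest that 5 litters allow).

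Afmid (ENSMUSG00000017718; chromosome 11, 117825924 to 117839908, plus strand) encodes the formamidase that yields kynurenine. Its values were 0.990, 1.71, 0, 0.556, 1.77 and 0.872 TPM with the label ErbB4myeKO and 0.998, 0.619, 0.974, 1.14, 0.375 and 0.603 TPM with the label ErbB4FF, with 3 litters on either side (exact permutation p = 0.875). Of the 31-base words of its transcript, 64.4% also occur in other genes, and Gm20708 holds 1480 of these words, so the split between these genes is uncertain.

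Kmo (ENSMUSG00000039783; chromosome 1, 175620381 to 175662116, plus strand), the monooxygenase that hydroxylates kynurenine, was listed at 0 in 7 of 12 libraries and did not exceed 0.257 TPM. With the label ErbB4myeKO litters 1 to 3 were at 0 and litters 4 to 6 at 0.0862, 0.0813 and 0.133 TPM, and with the label ErbB4FF litters 2 and 6 alone were above 0, at 0.0696 and 0.257 TPM. Haao (ENSMUSG00000000673; chromosome 17, 83831156 to 83847963, minus strand), the dioxygenase that leads on to quinolinate, had 0.410, 0, 0, 0.210, 0.0992 and 0.650 TPM against 0.159, 0.237, 0, 0.227, 0.601 and 0.0895 TPM. Neither gene moved one way across litters (exact permutation p = 1 for Kmo and 0.938 for Haao). The mean log2 ratio of Haao was -0.007, and -0.20 without litter 6 (exact permutation p = 0.375). The depth behind these values is not in the table, and no difference was detectable at such levels.

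Kynu (ENSMUSG00000026866; chromosome 2, 43555329 to 43682715, plus strand), encoding kynureninase, was the most abundant of the 6 kynurenine genes among the 10. It was at 60.3, 36.6, 42.5, 49.5, 37.5 and 27.0 TPM with the label ErbB4myeKO and at 48.7, 23.6, 44.3, 32.4, 37.5 and 29.2 TPM with the label ErbB4FF. Litters 1, 2 and 4 were higher with the label ErbB4myeKO by log2 ratios of 0.31 to 0.62, and litters 3, 5 and 6 were within 0.11 of equality. The limma log2 fold change was 0.23 (SE 0.12, 95% interval -0.06 to 0.51, adjusted p = 0.625). It was 0.29 without litter 6, and 0.15 without litter 2 or litter 4. The transcript in the table shares 52.8% of its 31-base words with other transcripts of Kynu, and 6 transcripts of the gene are annotated.

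**Figure D2:**
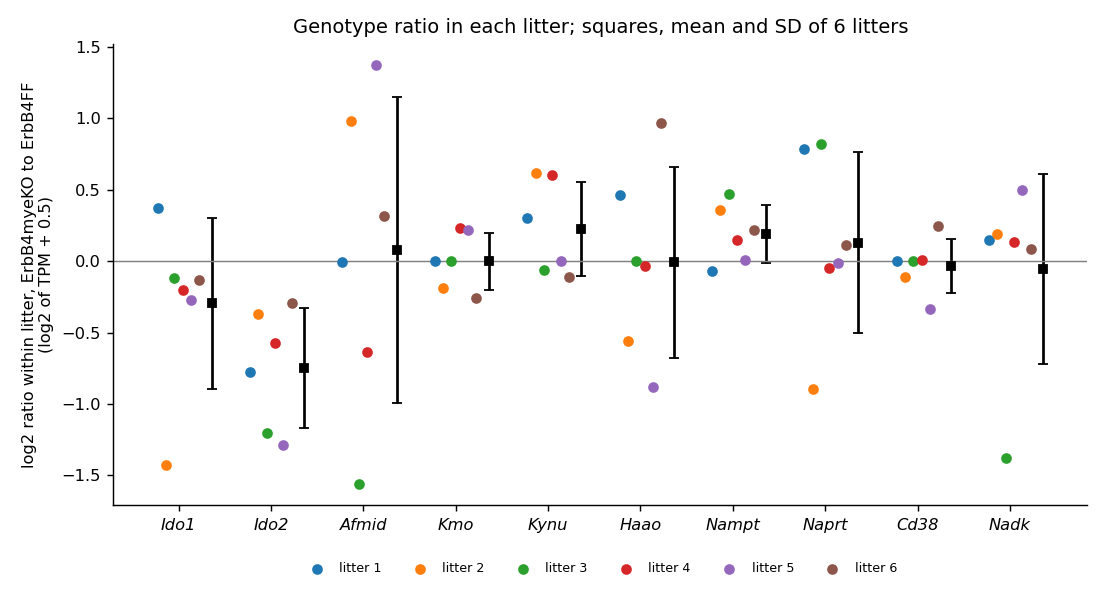
Log2 ratio of the library labelled ErbB4myeKO to its ErbB4FF littermate (vertical axis, log2 of TPM + 0.5) for 10 genes, with a coloured point per litter and black squares with bars for the mean and SD of 6 litters. All 6 points of Ido2 lie below 0, from -1.29 to -0.29, while Afmid, Haao and Naprt, which contain values listed at 0, spread to either side.

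Nampt (ENSMUSG00000020572; chromosome 12, 32819545 to 32853349, plus strand) encodes the rate-limiting enzyme of nicotinamide salvage and was the most abundant of the 10 transcripts in all 12 libraries. It stood at 478, 585, 912, 534, 388 and 426 TPM with the label ErbB4myeKO and at 500.4, 455, 659, 481, 385 and 367 TPM with the label ErbB4FF. In 5 of 6 litters it was higher with the label ErbB4myeKO, litter 1 was lower by a log2 ratio of -0.07, and litter 3 was the highest of both groups. The limma log2 fold change was 0.19 (SE 0.08, 95% interval 0.00 to 0.38), a fold of 1.14, with an unadjusted p of 0.0487 and an adjusted p of 0.603. The exact permutation p was 0.0938. Without litter 6 the log2 fold change was 0.19 (limma adjusted p = 0.767).

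Naprt (ENSMUSG00000022574; chromosome 15, 75890956 to 75894481, minus strand), which makes NAD from nicotinic acid, was at most 0.727 TPM and listed at 0 in 3 libraries. Its values were 0.363, 0, 0.385, 0.380, 0.717 and 0.392 TPM with the label ErbB4myeKO and 0, 0.428, 0, 0.410, 0.727 and 0.324 TPM with the label ErbB4FF (exact permutation p = 0.781). In both libraries of litter 5 it was highest. The transcript shares 247 of its 31-base words with Eef1d, and 13.2% with other genes in all.

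Cd38 (ENSMUSG00000029084; chromosome 5, 43868553 to 43912375, plus strand), the ectoenzyme that hydrolyses NAD and forms cyclic ADP-ribose, followed the litter closely. With the label ErbB4myeKO it was at 152, 212, 133, 304, 185 and 244 TPM, and with the label ErbB4FF at 151, 229, 133, 303, 233 and 206 TPM. Littermates of litters 1, 3 and 4 differed by at most 0.01 on the log2 scale. The limma log2 fold change was -0.03 (SE 0.08, 95% interval -0.21 to 0.15, adjusted p = 0.910), which as a fold spans 0.863 to 1.11. Without litter 6 it was -0.09.

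Nadk (ENSMUSG00000029063; chromosome 4, 155562378 to 155591001, plus strand), the cytosolic NAD kinase that supplies NADP, was read at 89.5, 100.0, 35.0, 92.6, 58.2 and 97.0 TPM with the label ErbB4myeKO. The values with the label ErbB4FF were 80.5, 87.4, 91.5, 84.4, 41.0 and 91.5 TPM. In 5 of 6 litters it was slightly higher with the label ErbB4myeKO, by log2 ratios of 0.08 to 0.50, and litter 3 went the other way by -1.38. The limma log2 fold change was -0.05 (SE 0.23, 95% interval -0.58 to 0.48, adjusted p = 0.948), and it was 0.21 without litter 3 (limma adjusted p = 0.515) and -0.08 without litter 6. The library of litter 3 labelled ErbB4myeKO had the fewest genes above 0 TPM, and its part in this value was not tested.

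Nadk is the gene of the 10 with a pair of transcripts in the table, and they begin at separate promoters. ENSMUST00000030939 starts at position 155562378 and ENSMUST00000105613 at 155563700 of chromosome 4. RefSeq (GRCm38.p6) has promoter windows of 300 bases that cover each of these starts, whose start sites are 1434 bases apart. They are shown because the transcripts differ in level, and the capitals mark GCGTG or its reverse complement CACGC, the core bound by the aryl hydrocarbon receptor with ARNT.
Nadk upstream promoter, chr4:155562131-155562430, plus strand: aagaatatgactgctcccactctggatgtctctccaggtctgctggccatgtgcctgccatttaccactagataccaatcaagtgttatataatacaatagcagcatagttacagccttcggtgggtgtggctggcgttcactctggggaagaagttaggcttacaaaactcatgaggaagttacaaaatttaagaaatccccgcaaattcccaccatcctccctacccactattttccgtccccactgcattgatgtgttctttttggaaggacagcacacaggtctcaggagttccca
Nadk downstream promoter, chr4:155563565-155563864, plus strand: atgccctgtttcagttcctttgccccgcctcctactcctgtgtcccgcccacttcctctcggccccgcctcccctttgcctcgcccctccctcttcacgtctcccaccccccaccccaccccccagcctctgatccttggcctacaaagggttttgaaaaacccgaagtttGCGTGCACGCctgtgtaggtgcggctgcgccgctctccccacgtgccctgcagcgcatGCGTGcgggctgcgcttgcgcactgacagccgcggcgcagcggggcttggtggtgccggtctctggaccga
The upstream window holds 4 CpG and no GCGTG, and the downstream window holds 24 CpG and 3 matches. The RefSeq start site of the downstream window is at 155563815, past the start of ENSMUST00000105613 at 155563700. All 3 matches lie past that transcript start. A match is a description of letters and was found in 32.4% of 32851 RefSeq promoter windows of this length.

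The transcript from the CpG-poor upstream start carried most of the Nadk level. ENSMUST00000030939 was at 80.2, 89.1, 22.4, 70.0, 51.3 and 81.5 TPM with the label ErbB4myeKO and at 68.9, 83.3, 76.9, 69.2, 34.5 and 73.2 TPM with the label ErbB4FF. ENSMUST00000105613 was at 9.26, 10.9, 12.5, 22.6, 6.83 and 15.5 TPM and at 11.5, 4.13, 14.6, 15.1, 6.51 and 18.4 TPM. The drop of litter 3 was in the upstream transcript (76.9 to 22.4 TPM), whereas the downstream transcript was 14.6 and 12.5 TPM there. Neither was called for genotype in a limma fit of 10085 transcripts, of which 0 were called and 678 (6.72%) had an unadjusted p under 0.05. The log2 fold changes were -0.12 (SE 0.29, adjusted p = 0.921) and 0.20 (SE 0.23, adjusted p = 0.819). The pair shares over 95% of its 31-base words with other Nadk transcripts, so kallisto's split between them rests on little unique sequence.

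**Figure D3:**
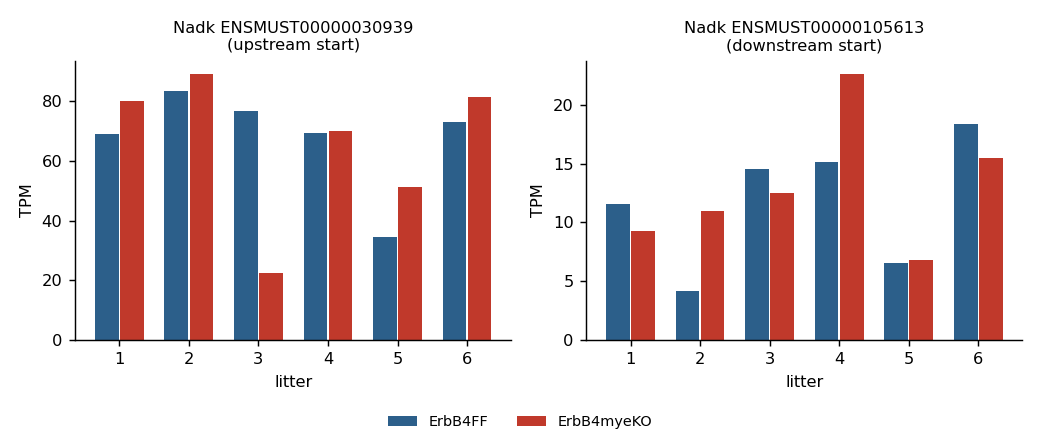
TPM of the Nadk transcripts by litter (horizontal axis), with blue bars for ErbB4FF and red bars for ErbB4myeKO, 1 library per bar and a separate vertical scale for each panel. The upstream transcript of litter 3 is at 22.4 TPM in the library labelled ErbB4myeKO and at 76.9 TPM in its littermate, and the downstream transcript shows no such gap.

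The promoter of Nampt, the most abundant of the 10, is shown as a contrast in base composition. It has 36 CpG in 300 bases, more than 93.8% of windows, and a GC content of 76.3%, against 46.7% for the upstream Nadk window. GCGTG or CACGC, again in capitals, occurs 5 times, and 0.463% of windows have 5 or more matches. The windows of Afmid, Cd38 and Kmo held no match and that of Haao held 1.
Nampt promoter, chr12:32820085-32820384, plus strand: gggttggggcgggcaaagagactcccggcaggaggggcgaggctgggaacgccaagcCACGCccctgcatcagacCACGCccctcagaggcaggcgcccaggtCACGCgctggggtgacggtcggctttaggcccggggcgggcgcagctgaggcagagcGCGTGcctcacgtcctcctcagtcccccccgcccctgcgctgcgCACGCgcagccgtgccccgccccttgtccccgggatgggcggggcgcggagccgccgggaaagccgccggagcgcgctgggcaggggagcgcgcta
RefSeq entries were matched for 6 of the 10 genes, so Ido1, Ido2, Kynu and Naprt were not searched. None of the windows of the 6 held the interferon-γ activation site TTCNNNGAA, which is in 8.30% of windows, or the core of the interferon-stimulated response element (GAAA, any 2 bases, GAAA), which is in 3.44%. These motifs were searched on both strands, and no match says only that the letters are not in this window.

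In the 5 tested genes litter took a larger share of the sum of squares than genotype. Litter has 5 coefficients in the fit and genotype a single one. Litter would thus be expected to take the larger share with no effect of either. Over all 8780 genes the limma F-test of litter called 3938 (44.9%) at an adjusted p under 0.05, and 4 of the 5 genes were among them, namely Ido1 (adjusted p = 0.0152), Kynu (0.0457), Nampt (0.00726) and Cd38 (0.00332). Nadk was not (adjusted p = 0.219). With a covariate from 4 Y-linked genes, Ido1 (F-test adjusted p = 0.0772), Kynu (0.139) and Nampt (0.0922) were no longer called. Litter took 95.2% of the sum of squares of Cd38 and genotype 0.152%, while for Ido1 the shares were 84.8% and 3.43%. The median gene had 78.1% for litter and 2.49% for genotype, as a background. Ido2 lay the other way round, with 37.7% for litter and 49.3% for genotype, and with 33.6% and 56.3% when litter 6 was left out, as a description with no test.

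The genes did not follow a single litter pattern. Ido1 was highest in litters 2 and 4 and lowest in litters 6 and 1, with a 4.79-fold span between litter means. Cd38 was highest in litter 4 and lowest in litter 3 (2.28-fold). Nampt peaked in litter 3 and was lowest in litter 5 (2.03-fold), and Kynu was highest in litter 1 and lowest in litter 6 (1.94-fold). Across the 12 libraries the highest correlation between any 2 of the 5 was that of Ido1 with Cd38 (r = 0.57) and the lowest that of Nampt with Cd38 (r = -0.48). These are descriptions over libraries that share litters. Marker sums moved with litter too. The neutrophil sum was 153 to 371 TPM in litters 5 and 6 and at most 72.8 TPM in the rest. The dendritic cell sum, mostly Ccr7, was 94.9 and 123 TPM in litter 1, where Kynu was highest. The part of these sums in the litter pattern was not tested.

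**Figure D4:**
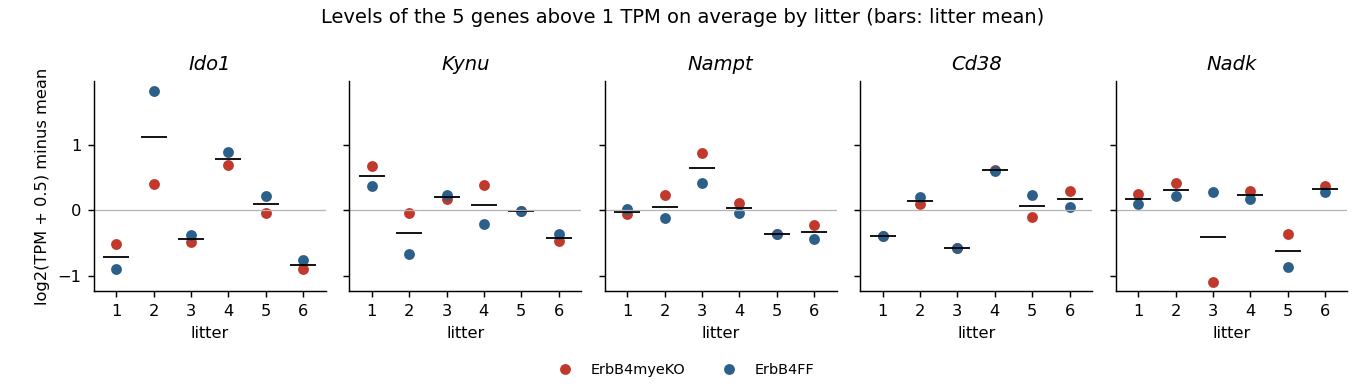
Level of the 5 tested genes by litter, as log2(TPM + 0.5) minus the mean of 12 libraries (vertical axis), with red points for ErbB4myeKO, blue points for ErbB4FF and black bars for the litter mean. Littermates of Cd38 nearly coincide in litters 1, 3 and 4, Ido1 splits widest in litter 2 and Nadk in litter 3.

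The genes most like each of the 5 were named as the 3 with the highest Pearson r over 12 libraries, which also share litter. For Nampt they were Eif5 (r = 0.97), Bcl10 (0.96) and Ptbp2 (0.95). For Nadk they were Cherp (0.96), Gga3 (0.95) and Wdr11 (0.95). For Kynu they were P2rx5 (0.91), Ccr7 (0.89) and Cited2 (0.85). For Ido1 they were Olfr365 (0.93), Tmem50b (0.92) and Fzd7 (0.91), and for Cd38 they were Tnip3 (0.90), Gas7 (0.89) and Rab31 (0.87).

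The rest of the pathway was read from 4 lists of 47 genes, of which 28 were tested and 0 were called by limma. An unadjusted p under 0.05 was found for 3 of 28 (10.7%), against 8.21% of all genes tested. The same direction in all 6 litters was seen for 3 of 28 (10.7%), namely Nmnat1, Parp2 and Pnp, against 4.82% of all genes tested. Their log2 ratios in litter 6 were 0.03, 0.05 and -0.16. With litter 6 left out, 4 of 28 (14.3%), these and Nnt, had the same direction in the other 5, against 7.95% of all genes tested. The smallest adjusted p in the lists was 0.603.

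Of 13 other genes that use tryptophan or kynurenine, 5 were tested. The liver dioxygenase Tdo2, which shares the first step with Ido1 and Ido2, was at most 0.0343 TPM, Acmsd and Aadat were listed at 0 throughout, and Qprt, which turns quinolinate into a NAD precursor, was at most 0.110 TPM. The table holds principal transcripts only, which made up 59.0% to 74.7% of the TPM of a library. Those of Kmo and Haao share 99.8% and 80.2% of their 31-base words with other transcripts of the same gene. Il4i1, an L-amino acid oxidase that acts on tryptophan, was higher than Ido1 by the mean of 12 libraries (50.9 against 8.01 TPM), from 2.84 TPM in litter 3 of the label ErbB4myeKO to 101 TPM in litter 2 of the label ErbB4FF (limma log2 fold change -0.65, SE 0.54, adjusted p = 0.717). That fold change rested on litter 3, without which it was 0.00. Wars, the tryptophanyl-tRNA synthetase, was between 0 and 11.3 TPM. The listed transcripts of Wars and Il4i1 each share 98.4% of their 31-base words with other transcripts of the same gene. These values may thus miss RNA of the gene. The aminotransferase Got2 gave -0.11 (SE 0.07), and Slc7a5, a subunit of the transporter that brings in tryptophan and kynurenine, gave 0.37 (SE 0.22), or 0.20 without litter 2 and 0.25 without litter 6. The median log2 fold change of the 5 was -0.11, against 0.00 over all genes.

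Of 12 other genes of NAD and NADP synthesis, 5 were tested, with a median log2 fold change of 0.35. Nmnat1, the nuclear adenylyltransferase that completes NAD after NAMPT, was at 5.88, 4.50, 1.92, 4.69, 6.22 and 5.44 TPM with the label ErbB4myeKO and at 3.52, 3.89, 0.889, 3.98, 2.90 and 5.31 TPM with the label ErbB4FF. It was higher in 6 of 6 litters with overlapping ranges (log2 fold change 0.48, SE 0.16, limma unadjusted p = 0.0184, adjusted p = 0.603). Without litter 6 the Nmnat1 log2 fold change was 0.57. The listed Nmnat1 transcripts share 100% and 82.7% of their 31-base words with other Nmnat1 transcripts. Nmnat2 did not exceed 0.393 TPM, and Nadk2, the mitochondrial NAD kinase, was listed at 0 throughout. Pnp, which frees nicotinamide from its riboside, was at 1076 to 1767 TPM and 1103 to 2014 TPM, and lower with the label ErbB4myeKO in 6 of 6 litters by log2 ratios of -0.19 to -0.04 (limma unadjusted p = 0.0552, adjusted p = 0.603). Pnp shares 597 of its 31-base words with Pnp2 and 688 with Gm49342, so its level is uncertain. The transhydrogenase Nnt gave 0.35 (SE 0.19), or 0.19 without litter 1, and the mitochondrial NAD carrier Slc25a51 gave -0.36 (SE 0.40), which turned to 0.09 without litter 3.

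Of 14 other enzymes that consume NAD, 11 were tested. Parp2, a DNA repair polymerase, was at 9.21, 8.09, 9.53, 8.84, 11.7 and 7.42 TPM with the label ErbB4myeKO and at 6.55, 7.83, 6.97, 5.56, 10.4 and 7.17 TPM with the label ErbB4FF. It was higher in 6 of 6 litters (log2 fold change 0.29, SE 0.11, limma unadjusted p = 0.0300, adjusted p = 0.603). Sirt1, a nuclear deacetylase, was listed at 0 in 4 libraries and reached 3.64 TPM (log2 fold change -0.90, SE 0.38, limma unadjusted p = 0.0490, adjusted p = 0.603). Without litter 6 Parp2 gave 0.34 and Sirt1 -0.74 (limma unadjusted p = 0.0276 and 0.125). The listed Sirt1 transcripts share 100% and 88.1% of their 31-base words with other Sirt1 transcripts. That of Parp2 shares 94.0% with other Parp2 transcripts. Parp3 gave -0.25 (SE 0.13), or -0.15 without litter 2. Bst1, the ADP-ribosyl cyclase paired with Cd38 on chromosome 5, was at 19.8 to 70.9 TPM and its log2 fold change was 0.05 (SE 0.12), or -0.06 without litter 6. Sarm1 was at most 0.0571 TPM. The median of the list was 0.00.

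Of 8 genes for kynurenine sensing, 7 were tested. The receptor Ahr was at 1.23 to 9.74 TPM and higher with the label ErbB4myeKO in 5 of 6 litters (log2 fold change 0.21, SE 0.12, limma adjusted p = 0.639). Without litter 2 the Ahr log2 fold change was 0.14. Of the targets of the receptor, Nqo1 gave 0.38 (SE 0.17, limma adjusted p = 0.603), and Cyp1a1 did not exceed 0.050 TPM. Cyp1b1 gave 0.43 (SE 0.33), Tiparp 0.01 (SE 0.10) and Ahrr -0.05 (SE 0.18). Gpr35, a receptor for kynurenic acid, gave -0.43 (SE 0.32) and was listed at 0 in 2 libraries. It was -0.20 without litter 5, -0.27 without litter 2 and -0.68 without litter 3. The median of the list was 0.01.

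**Figure D5:**
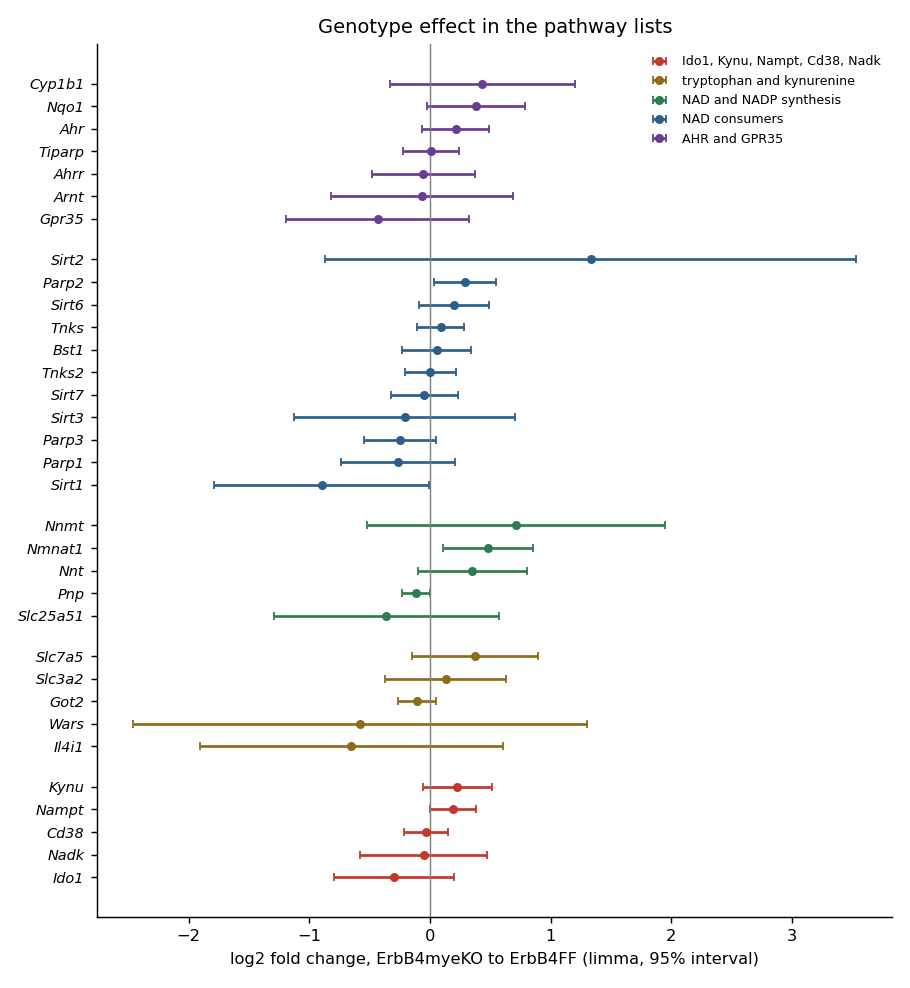
Limma log2 fold change of the label ErbB4myeKO to ErbB4FF with its 95% interval (horizontal axis) for the 5 tested genes and 28 further genes of the pathway lists (vertical axis, coloured by list). Nmnat1 and Parp2 lie above 0 and Sirt1 below with intervals that stop short of 0, as does that of Nampt, whose lower bound rounds to 0.00.

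Of 10 M1 response genes, Gbp2 (1799 to 2813 TPM) and Acod1 (3369 to 5828 TPM) were high in all libraries. Without an unstimulated sample, a response to activation cannot be read from these levels. Nos2, which encodes the inducible nitric oxide synthase of M1 cells, was listed at 0 in 3 libraries, at 0.0109 and 0.0417 TPM in 2 others and at up to 139 TPM, with log2 ratios of -6.77 to 3.89. Its transcript in the table shares 97.0% of its 31-base words with other Nos2 transcripts. None of the 10 was called by limma, and Il12b (log2 fold change 1.19) and Cxcl10 (-0.18) had an unadjusted p under 0.05. Among the markers, Fcgr1 of the macrophage list (-0.86), Xcr1 of the dendritic cell list (0.63), Camp of the neutrophil list (0.45) and Mki67 of the proliferation list (0.42) had an unadjusted limma p under 0.05, with none called. Their part in the values of the 10 genes was not tested.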

How the data were processed

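The authors pseudoaligned single-ended reads of 75 bases to the mouse transcriptome with kallisto, whose version is not given in the sources used here, and deposited TPM for the APPRIS principal transcripts, with mm10 as the build per the labels. They also deposited an average per transcript, from sleuth, of log-transformed (natural log) estimated counts after normalization, used here for the depth of a transcript, and p-values and q-values, which were not used. The table gives no read depth, so precision rests on the spread between the 6 cultures per genotype, each from a different mouse.

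Repeated lines (405 of 29213) were dropped and TPM summed per gene. Positions are from GENCODE M21. Limma 3.58.1 in R 4.3.3 was fitted to log2(TPM + 0.5), with litter as a block and eBayes with trend, for genes averaging at least 1 TPM. The pairing follows the litter number. The correlation of littermates around the gene means was 0.273 to 0.774. Libraries of different litters were not compared in this way, so it does not check the pairing. Single genes were tested by exact permutation. Python 3.11.15 did the rest. The fit was tested on simulated data. Sex is not on the labels.

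The 10 genes and all lists were chosen with earlier results of these data known. Named genes were the 10, list genes with the 3 smallest p of their list or alone in their step, and the 3 most alike in pattern. Other list genes were named for levels seen. Alternatives were no block, a covariate from 4 Y-linked genes, pseudocounts, filters, scaling, no trend, each litter left out and the highest transcript.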

Additional observations from a re-analysis of the deposited data

Results flagged for a closer look

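Values of the 10 genes in either group, and their log2 ratios over litters, were examined in 30 sets of 6 for a value whose gap to its neighbour exceeds 0.625 of the range, and chance alone gives such a value in about 1 of 20 sets. In all, 4 were found. The Ido1 log2 ratio of litter 2 was -1.43, from 24.8 TPM in the library labelled ErbB4FF and 8.91 TPM in its littermate. The Nadk log2 ratio of litter 3 was -1.38, and it lay in the upstream transcript. Nadk in the library of litter 5 labelled ErbB4FF was 41.0 TPM, with 58.2 TPM in its littermate. Kmo in the library of litter 6 labelled ErbB4FF was 0.257 TPM, in a gene listed at 0 in 7 libraries.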

How the results depend on the processing

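The number of genes called for genotype by limma was 0 in the main fit and in all alternatives but 1, and leaving out a litter gave 0 to 1 (without litter 3). At an unadjusted p under 0.05 the 721 genes became 75 with no block for litter, and 413 to 864 with a litter left out, with 413 without litter 2 and 458 without litter 4. The 3 list genes at that threshold became 0 with no block and 1 with a mean of at least 5 TPM, and 2 to 4 with a litter left out. The genes changed too, as Nmnat1 passed in 4 of these 6 fits, Parp2 in 3 and Sirt1 in 2, and without litter 1 those that passed were Nqo1 and Sirt6. Genes with a litter effect fell from 3938 to 837 with the covariate from Y-linked genes, and were 1002 to 4092 with a litter left out, fewest without litter 5. Among the members the litter call of Ido1 was lost with that covariate (adjusted p = 0.0772) and without litter 5 (0.0502), that of Nampt with the covariate (0.0922) and without litter 3 (0.0598), and that of Kynu in 7 of 14 alternatives (0.0549 to 0.168), while Nadk gained a call without litter 3 (0.00622). The cause was not tested.

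No tested member had an adjusted p for genotype under 0.50 in any alternative. Directions turned in Cd38 (-0.086 to 0.030 with a litter left out, 0.030 without litter 5) and Nadk (-0.16 to 0.21, 0.21 without litter 3). The mean log2 ratios of genes near 0 TPM turned too, for Kmo with a pseudocount of 1 (-0.0024) or median-ratio scaling (-0.0015), for Haao with a pseudocount of 1 (0.0023) and for Afmid with one of 0.1 (-0.10). With a litter left out they ran from -0.046 to 0.052 for Kmo, -0.20 to 0.17 for Haao, -0.18 to 0.41 for Afmid and -0.010 to 0.33 for Naprt. Ido2 was lower in every alternative, at -1.17 with a pseudocount of 0.1, -0.53 with 1 and -0.84 to -0.64 with a litter left out. With no block its exact permutation p over 924 splits was 0.0152. For the 5 members under the filter the covariate, filter and trend alternatives were not run by permutation.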
